A study of Homo sapiens with 5 samples.

Results

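Axon guidance ligands and receptors were followed in human brain organoids before and after grafting into the mouse brain. They comprised the 71 genes whose symbols name a Slit, a Robo, a netrin, a netrin-G, DCC, an UNC5 receptor, an ephrin, an Eph receptor, a semaphorin, a neuropilin or a plexin, of 32732 genes listed in both human annotations of the files. Of these, 37 were ligands and 34 were receptors. They were picked by symbol alone, though with earlier results of these data known.

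The organoids came from the human embryonic stem cell line H9, labelled as wild type, which according to the study's methods carried a channelrhodopsin and fluorescent protein cassette at a safe harbour locus. All 5 single-cell libraries share this line. D0 was made from organoids at day 42 of culture, the age at which others were grafted, and was dissociated with TrypLE. The other 4 libraries came from organoids grafted into the prefrontal cortex (PFC) or the hippocampus (HIP) of immunodeficient SCID mice and collected at 2 or 4 months post-transplantation (2MPT and 4MPT), with grafts of several mice pooled and dissociated with Trypsin-EDTA. Each stage and site was 1 library, and no untransplanted organoid of the same age as the grafts was analysed here.

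Guidance cues steer growing axons and migrating neurons by attraction or repulsion. Slits repel cells that carry Robo receptors, netrin attracts through DCC and can repel through UNC5 receptors, ephrins signal through Eph receptors on contact, and secreted class 3 semaphorins act through neuropilins together with plexins. In the developing cortex these families are best known for guiding callosal and corticofugal axons and for positioning migrating neurons, and several also act on oligodendrocyte precursors.

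After filtering, 4885 human cells remained in D0, and 5952 to 8363 in each graft library. The median number of unique molecules (UMIs) per cell was 9847 in D0 and 1253 to 2759 in grafts. The median mitochondrial share was 7.31% in the PFC graft at 4MPT and 2.35% to 3.77% in the other libraries. Cell classes were set by clustering without the 71 genes and named from marker lists. Neuron-like cells numbered 2151 in D0 and 4751 to 7380 per graft, progenitor-like cells 2387 and 492 to 641, and astrocyte-like cells 74 and 367 to 540. Choroid-plexus-like cells numbered 267 in D0 and 0 or 1 per graft. Oligodendrocyte-lineage-like cells were found at 4MPT, with 65 in the HIP graft and 102 in the PFC graft, against 2 in all other libraries. The label astrocyte-like was weak before 4MPT, since 5 of 8 astrocyte markers reached 10 CPM at D0 and 2MPT, against 8 of 8 at 4MPT. Barcodes shared by any pair of libraries numbered 6 to 20. Levels are given in CPM, which is a gene's UMI count scaled to the same total in every library, and cover all human cells of a library unless a class is named. Where a stage has a pair of values, the first is HIP and the second PFC.

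Every one of the 71 genes had a UMI in at least 1 library, and 65 had one in every library. The level stayed under 10 CPM everywhere for 17, and reached 100 CPM somewhere for 15. Summed over the 34 receptors, the level was 519 CPM in D0, 4289 and 4308 at 2MPT and 3854 and 2976 at 4MPT. Summed over the 37 ligands, it was 704 CPM in D0, 1094 and 998 at 2MPT and 750 and 707 at 4MPT. The receptor sum was thus several-fold higher in every graft than in D0, while the ligand sum of the 4MPT grafts lay near that of D0. A few genes carried most of the receptor sum. In HIP_4MPT ROBO2 was at 860 CPM, UNC5D at 688, EPHA3 at 584 and DCC at 554. Other receptors, such as NRP2 and EPHA2, were lower in every graft than in D0, so the sum does not describe receptors as a whole.

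**Figure D1:**
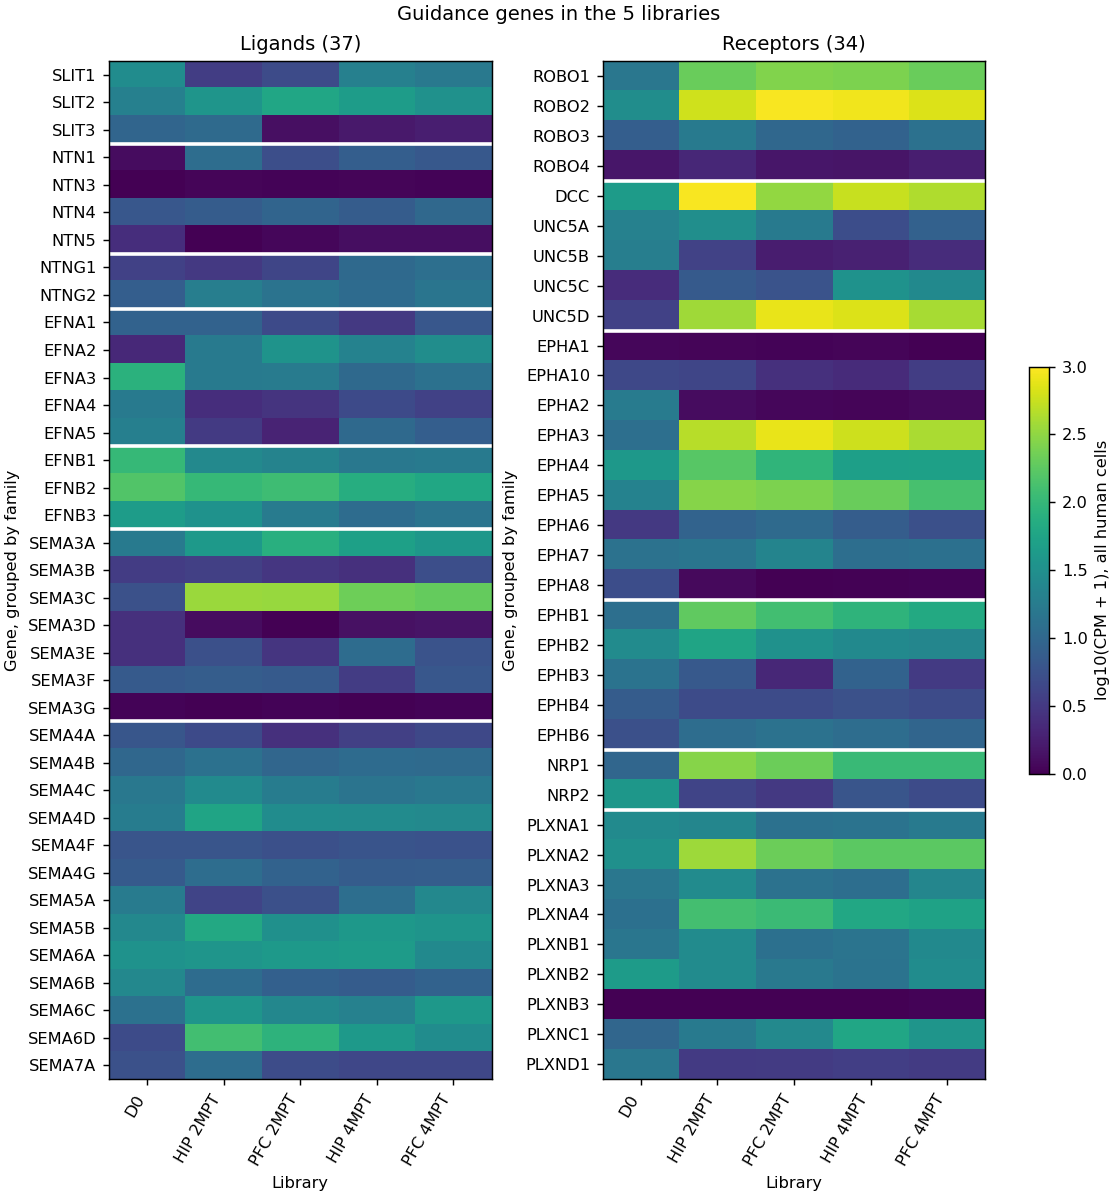
Levels of the 37 ligands and 34 receptors over all human cells of the 5 libraries, coloured by log10 of CPM plus 1, with families divided by white lines. ROBO2, UNC5D, EPHA3 and DCC are brighter in all 4 grafts than in D0, and NRP2, EFNA3 and EFNB1 are darker.

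The first comparison asked how the organoids differed before and after grafting. It was made on UMI sums per library with edgeR's quasi-likelihood test, and a gene was called at a Benjamini-Hochberg adjusted p under 0.05 over all genes tested. The p-values measure the spread between the HIP and PFC library of a stage, not between animals. Of 71 genes, 67 passed the filter on low counts. Between 2MPT and D0, 19 were higher and 21 lower at 2MPT, against 48.3% of all genes tested that were called in either direction (27.2% higher and 21.1% lower). Between 4MPT and D0, 19 were higher and 19 lower, against 50.1% of all genes (28.7% and 21.4%). The shares were thus not far above the background, and the median log2 fold change of the 67 genes was 0.10 at 2MPT and −0.19 at 4MPT, beside 0.07 and 0.08 over all genes. Both comparisons rest on the same single D0 library, whose spread was taken from the graft libraries. D0 also differed from grafts in age, enzyme, annotation and Cell Ranger release, and these cannot be told apart from grafting. In sums over all cells, a change in the share of a cell type and a change in RNA per cell cannot be told apart.

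By role, at 2MPT 14 of 32 receptors tested were higher and 9 lower than in D0, and of 35 ligands 5 were higher and 12 lower. At 4MPT the receptors split 12 and 8, and the ligands 7 and 11. These counts are read against the same shares of all genes as above, and whether receptors and ligands differed was not tested.

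ROBO2 and ROBO1, receptors for Slits, rose in the grafts. ROBO2 (chr3:75906695-77649964, GRCh38) was at 28.6 CPM in D0, 610 and 935 at 2MPT and 860 and 689 at 4MPT. All 4 grafts lay far above D0, and the log2 fold change was 4.38 ± 0.42 (SE) at 2MPT and 4.44 ± 0.43 at 4MPT (edgeR, adjusted p = 2.92e-05 and 2.82e-05). Here and below, the SE is the absolute log2 fold change divided by the square root of the F statistic of the test. ROBO1 was at 14.4 CPM in D0 and 204 to 272 in grafts. Among the Slits, SLIT1 was lower in both comparisons, SLIT3 was lower at 4MPT and SLIT2 was not called. SLIT1 was at 27.5 CPM in D0, 2.53 and 3.81 at 2MPT and 19.4 and 15.4 at 4MPT, so that the 2MPT libraries were lowest. SLIT2 was at 19.4 CPM in D0 and at 31.7 to 58.3 in grafts. In the choroid-plexus-like cells of D0 SLIT3 was at 57.1 CPM and SLIT2 at 109. The part of those cells in the Slit levels was not tested.

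The netrin receptors UNC5D and DCC also rose. UNC5D was at 2.76 CPM in D0, 372 and 789 at 2MPT and 688 and 403 at 4MPT. Its log2 fold change of 7.35 ± 0.66 at 2MPT (edgeR, adjusted p = 1.99e-05) was the largest rise among the 67 genes. DCC was at 43.6 CPM in D0, 940 and 325 at 2MPT and 554 and 442 at 4MPT, and all grafts again lay above D0 although they differed among themselves. UNC5B went the other way, from 18.0 CPM in D0 to between 0.735 and 2.89 in grafts. It was at 71.2 CPM in the choroid-plexus-like cells of D0, which were nearly absent from grafts. The part of those cells in the UNC5B fall was not tested. Netrin-1 (NTN1), a ligand of netrin receptors, was at 0.268 CPM in D0 and 4.28 to 10.8 in grafts. NTN4 was at 5.48 CPM in D0 and 6.51 to 9.18 in grafts and was not called.

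Neuropilins moved in opposite directions. NRP1, a co-receptor for SEMA3A and VEGF, was at 8.81 CPM in D0, 288 and 212 at 2MPT and 106 and 107 at 4MPT. NRP2, a co-receptor for SEMA3F, was at 38.1 CPM in D0 and then at 3.16 and 2.14 at 2MPT and 5.19 and 3.90 at 4MPT. No graft overlapped D0 for either gene. The log2 fold change at 2MPT was 4.45 ± 0.36 for NRP1 and −4.23 ± 0.36 for NRP2 (edgeR, adjusted p = 1.26e-05 and 1.56e-05). The secreted ligand SEMA3C rose from 4.60 CPM in D0 to 356 and 346 at 2MPT and 216 and 194 at 4MPT. SEMA3A, which repels axons through NRP1, was at 16.3 CPM in D0 and 37.9 to 76.1 in grafts, and was higher in both comparisons. The transmembrane semaphorin SEMA6D rose from 3.79 CPM to 121 and 86.6 at 2MPT and 39.5 and 28 at 4MPT, whereas SEMA6B fell from 24.2 to between 6.42 and 10.6. SEMA5B was at 24.0 CPM in D0 and 30.9 to 64.5 in grafts.

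Plexins, the receptors that signal for semaphorins, also moved both ways. PLXNA2 was at 31.2 CPM in D0, 359 and 213 at 2MPT and 172 and 173 at 4MPT, and its log2 fold change between 2MPT and D0 was 2.82 ± 0.38 (edgeR, adjusted p = 1.98e-04). PLXNA4 was at 11.8 CPM in D0, 126 and 110 at 2MPT and 61.6 and 51.9 at 4MPT. Both were thus higher in every graft than in D0, and PLXND1, a receptor of SEMA3E, was lower, at 14.4 CPM in D0 and 2.26 to 2.64 in grafts. PLXNB2, a receptor of class 4 semaphorins, was also lower, at 43.2 CPM in D0 and 12.7 to 28.1 in grafts.

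In the ephrin and Eph families the ligands were mostly lower and the receptors were mixed. All 3 ephrin-B genes were lower in both comparisons, and of 5 ephrin-A genes 3 were lower and 1 higher in each. EFNB1 was at 102 CPM in D0, 24.5 and 20.9 at 2MPT and 14.9 and 15.7 at 4MPT. EFNA3 was at 80.5 CPM in D0 and 9.54 to 16.6 in grafts. The ephrin that rose was EFNA2 (chr19:1285873-1301431), at 1.24 CPM in D0, 16 and 33.9 at 2MPT and 20.4 and 28.2 at 4MPT. Among receptors, EPHA3 rose from 11.5 CPM to 475 and 791 at 2MPT and 584 and 419 at 4MPT, whereas EPHA2 fell from 16.5 CPM to between 0.0944 and 0.271. EPHA5 was at 20.5 CPM in D0 and 132 to 285 in grafts, and was higher in both comparisons. Of the lower ephrins not yet given, EFNA4 was at 16.3 CPM in D0 and 1.45 to 3.68 in grafts, and EFNB3 at 45.1 and 10.4 to 33.2.

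The same comparison within classes gave counts of a like size. In neuron-like cells 19 of 66 genes tested were higher and 18 lower at 2MPT than in D0, against 44.1% of all genes called (26.6% higher and 17.6% lower), and 20 were higher and 20 lower at 4MPT, against 47.6% (28.2% and 19.4%). SEMA4A, a transmembrane semaphorin, was at 10.7 CPM in the neuron-like cells of D0 and 1.52 to 3.83 in those of grafts. Different clusters held the neuron-like class, with 1069 of the 2151 such cells in D0 lying in a cluster of 1071 cells. That cluster held 1 cell in each 2MPT graft and 0 at 4MPT. In D0 it had NRP2 at 88.2 CPM, SLIT1 at 80.3 and PLXND1 at 37.7, against 38.1, 27.5 and 14.4 over all D0 cells. EFNB1, also lower in grafts, was at 55.4 CPM in it, against 102. The part of this cluster in the lower levels of grafts was not tested. In progenitor-like cells, whose class was present in all libraries, 16 of 55 were higher and 15 lower at 2MPT (37.0% of all genes called, 21.5% higher and 15.5% lower), and 15 were higher and 16 lower at 4MPT (39.7%, 22.7% and 17.0%). There ROBO2 was at 27.0 CPM in D0 and 458 to 503 in grafts, and UNC5D at 1.02 CPM in D0 and 96.3 to 258 in grafts. EFNB1 was at 139 CPM in the progenitor-like cells of D0 and 9.05 to 19.0 in those of grafts. The Eph receptor EPHB1 was at 3.86 CPM there in D0 and 21.6 to 123 in grafts, and EPHB3 at 12.6 and 1.92 to 9.39. The make-up of the progenitor-like class also differed. Radial-glia-like cells were 1790 of 2387 in D0, and 199 of 492 and 296 of 625 at 2MPT. The 6 neuron markers summed to 614 CPM in D0 and 2781 and 1399 at 2MPT. The 6 inhibitory neuron markers summed to 24.7 CPM in D0 and 450 and 1185 at 4MPT. The 5 choroid plexus markers summed to 1368 CPM in D0, 18.9 and 23.9 at 2MPT and 2.44 and 1.44 at 4MPT. The part of this make-up in the differences was not tested.

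Gene length moved with this comparison. The genomic span of the 71 genes had a median of 70.4 kb, against 27.4 kb over 19161 protein-coding genes, and 33 of the 71 (46.5%) spanned over 100 kb, against 18.3%. Of the 19 guidance genes higher at 2MPT than in D0, 17 spanned over 100 kb, and of the 21 lower ones 5 did. Other protein-coding genes showed the same direction: of those over 200 kb 55.4% were higher at 2MPT and 9.0% lower, and of those under 20 kb 10.7% were higher and 31.5% lower. The median log2 fold change over 200 kb was 2.82 for the 21 guidance genes tested and 1.28 for the 1389 others. The short genes that rose were EFNA2 and EPHB6, both named after their values were seen. Whether intronic reads were counted is not given in the sources used here, and the part of gene length in these differences was not tested.

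**Figure D2:**
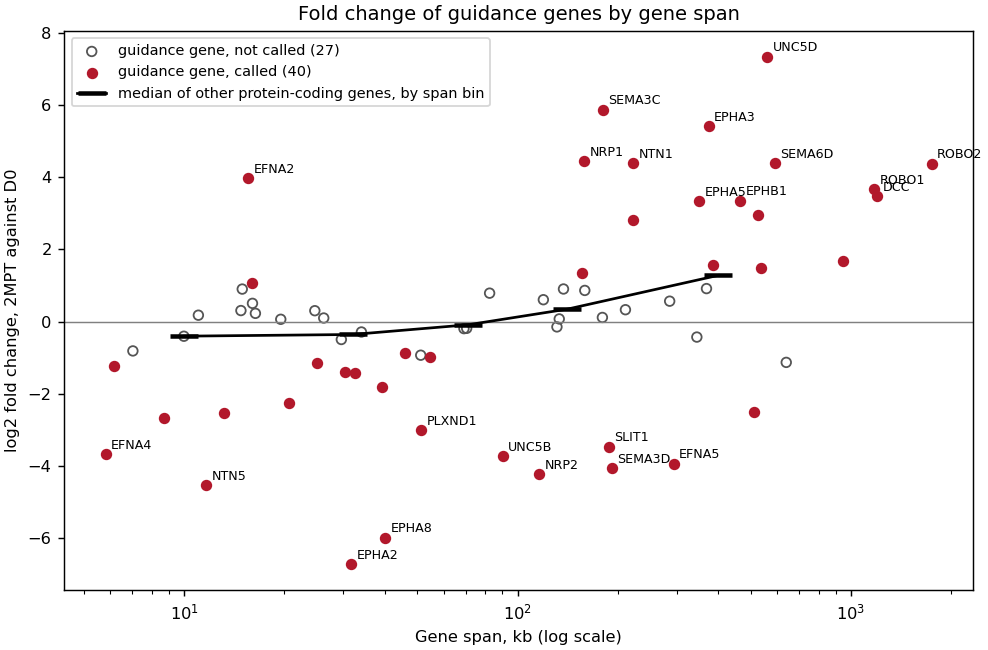
Log2 fold change of 2MPT against D0 over all human cells by genomic span in kb on a log scale, with 1 point per guidance gene, filled where called, and a black line for the median of other protein-coding genes in 5 span bins. Of the 19 higher genes, 17 lie over 100 kb, and the black line rises from the shortest to the longest bin.

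The second comparison asked what changed between 2 and 4 months in the host, with the HIP and PFC libraries as the replicates of each stage. Among the 67 guidance genes, 5 were higher and 5 lower at 4MPT, against 2.40% of all genes called (1.85% higher and 0.550% lower). An unadjusted p under 0.05 was found for 24 of the 67. For unadjusted counts, here and below, the share over all genes was not counted, so they are not read as a result. The median log2 fold change was −0.26, beside −0.01 over all genes. The higher genes were the netrin receptor UNC5C, the ligands SLIT1, EFNA5 and SEMA5A, and the membrane-anchored NTNG1. The lower genes were the receptors UNC5A, EPHA4, NRP1 and PLXNA4 and the transmembrane semaphorin SEMA6D.

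The number of calls changed with the libraries in the fit. Leaving a library out also removes a residual degree of freedom, so a lost call alone does not place the difference in that library. Without PFC_4MPT the log2 fold change was 2.60 for UNC5C, beside 2.47 with all libraries, and 1.57 for SEMA5A, beside 2.30. Shares of all genes called in the altered runs, here and below, are not given, so the counts of those runs have no background. Without the PFC_4MPT library 0 guidance genes were called by edgeR, without HIP_4MPT 4, without HIP_2MPT 9 and without PFC_2MPT 18.

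In neuron-like cells 2 genes were higher and 3 lower at 4MPT, against 1.13% of all genes called (0.742% higher and 0.391% lower). UNC5C was at 6.21 and 6.15 CPM at 2MPT and 50.1 and 36.2 at 4MPT, and at 1.24 in D0. Its stages did not overlap, with a log2 fold change of 2.85 ± 0.28 (edgeR, adjusted p = 8.36e-04). EFNA5 was at 1.86 and 1.16 CPM at 2MPT and 9.95 and 6.78 at 4MPT, and at 20.6 in D0, with a log2 fold change of 2.52 ± 0.39 (edgeR, adjusted p = 0.00892). UNC5A, a repulsive netrin receptor like UNC5C, fell from 32.5 and 21.2 CPM at 2MPT to 5.10 and 10.2 at 4MPT, against 45.1 in D0, by 1.75 ± 0.35 on the log2 scale (edgeR, adjusted p = 0.0354). UNC5C and UNC5A thus moved in opposite directions. SEMA6D fell from 132 and 112 CPM to 55.8 and 32.3, and EPHA4, a receptor that binds both ephrin classes, from 181 and 112 to 60.3 and 58.5 (edgeR, adjusted p = 0.0329 and 0.0470).

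UNC5C was called under each library left out in turn, and so was EFNA5. Without HIP_4MPT the count was 3 and without PFC_2MPT it was 13. UNC5A, EPHA4 and SEMA6D each lost the call when 1 or more of the libraries was left out, and scaling by relative log expression left 3 of the 5 calls. With the graft site as a block in the graft libraries alone, 5 genes were called and EPHA4 was not among them (edgeR, adjusted p = 0.0667), and it was also lost in those libraries without the block (adjusted p = 0.0584).

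The starts of the genes called in neuron-like cells are shown where RefSeq lists a single one, 250 bases before to 50 after it, read 5′ to 3′ on the gene's strand (RefSeq, GRCh38.p14). Capitals mark the GC box GGGCGG or its reverse complement, and the CCAAT letters were counted on both strands without capitals. EFNA5 lies at chr5:107670888-107671187 (minus strand), UNC5A at chr5:176810309-176810608 (plus strand) and UNC5C at chr4:95548924-95549223 (minus strand).
EFNA5: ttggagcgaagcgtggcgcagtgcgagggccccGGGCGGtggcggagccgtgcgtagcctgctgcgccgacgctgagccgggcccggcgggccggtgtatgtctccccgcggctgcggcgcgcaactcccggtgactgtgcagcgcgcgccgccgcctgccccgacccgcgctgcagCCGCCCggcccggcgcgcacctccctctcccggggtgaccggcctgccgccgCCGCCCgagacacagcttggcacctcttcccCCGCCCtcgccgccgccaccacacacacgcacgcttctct
UNC5A: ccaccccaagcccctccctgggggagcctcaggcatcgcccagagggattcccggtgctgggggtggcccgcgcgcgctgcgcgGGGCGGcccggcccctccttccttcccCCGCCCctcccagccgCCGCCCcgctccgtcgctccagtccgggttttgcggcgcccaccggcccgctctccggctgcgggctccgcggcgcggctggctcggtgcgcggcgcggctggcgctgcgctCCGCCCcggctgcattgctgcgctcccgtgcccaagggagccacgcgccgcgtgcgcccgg
UNC5C: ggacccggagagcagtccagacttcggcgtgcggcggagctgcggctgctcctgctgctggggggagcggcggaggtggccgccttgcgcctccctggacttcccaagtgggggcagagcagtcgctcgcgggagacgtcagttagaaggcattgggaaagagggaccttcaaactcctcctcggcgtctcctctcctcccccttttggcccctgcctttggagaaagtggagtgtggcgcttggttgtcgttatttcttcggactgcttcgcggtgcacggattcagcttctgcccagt
The EFNA5 and UNC5A starts hold 4 GC boxes each and no CCAAT box, with a G and C content of 78.0% and 80.7%. The UNC5C start holds 0 GC boxes and 1 CCAAT box, with 63.7%. Among 35116 listed promoters, 45.0% hold a GC box and 34.6% a CCAAT box, and of 94 promoters of 60 guidance genes 68 (72.3%) hold a GC box. The gene that rose with EFNA5 thus differs from it in these letters, and UNC5A, which fell, is like EFNA5.

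**Figure D3:**
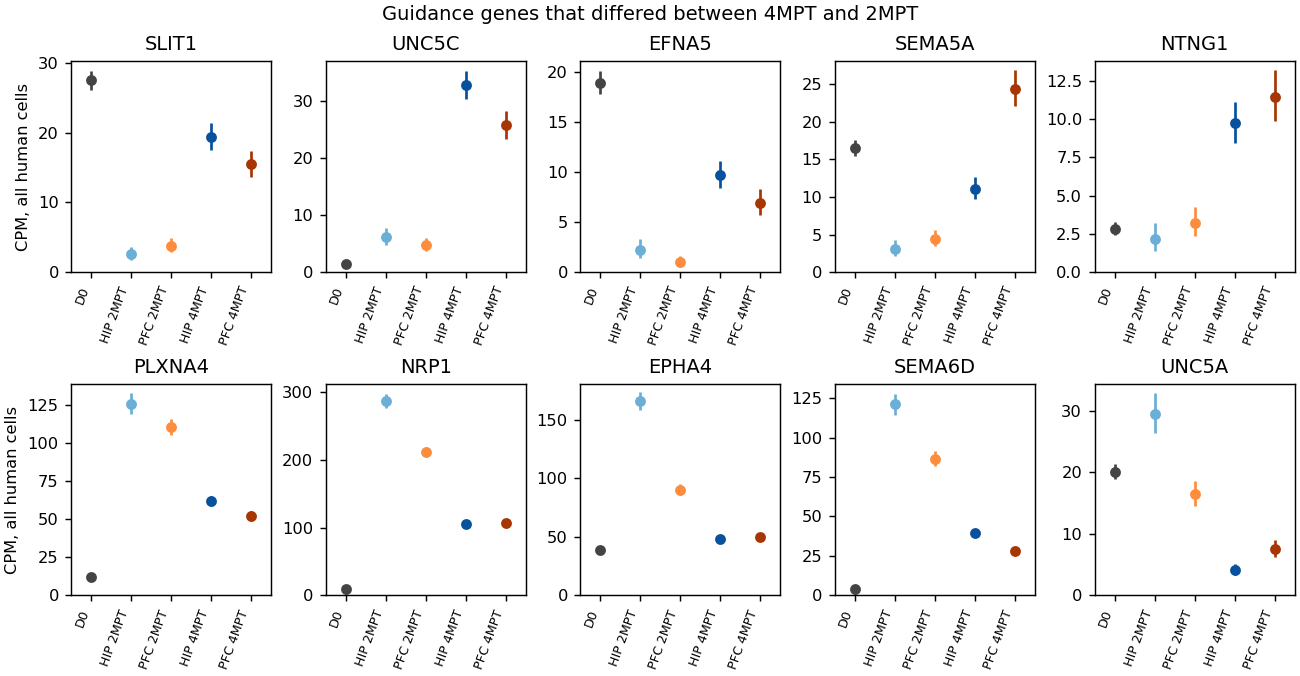
Levels over all human cells of the 10 guidance genes called between 4MPT and 2MPT, in CPM, with 1 point per library and bars for the exact 95% Poisson interval of its UMI count. UNC5C and SLIT1 lie higher in both 4MPT libraries than in both 2MPT libraries, and UNC5A and SEMA6D lie lower.

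Of the 5 other genes called over all cells, none was called in neuron-like cells, and whether their changes differed between the cell sets was not tested. In neuron-like cells the log2 fold change against D0 was 4.64 at 2MPT and 3.80 at 4MPT for NRP1. For SLIT1 it was −4.28 and −3.10. Between the stages both genes thus moved there in the all-cell direction. SEMA5A was at 3.07 and 4.41 CPM at 2MPT and 11.1 and 24.3 at 4MPT over all cells, but at 1.05 and 3.21 in the neuron-like cells of the 4MPT grafts. In the oligodendrocyte-lineage-like cells of the same grafts SEMA5A was at 597 and 396 CPM. NTNG1 was at 285 and 188 CPM there, against 1.13 and 3.21 in neuron-like cells. These cells were present at 4MPT and nearly absent at 2MPT. An unnamed cluster with OLIG1, SPARCL1 and OLIG2 among its top genes likewise held 955 and 702 cells at 4MPT and 36 and 48 at 2MPT. SLIT1 was at 66.3 and 49.2 CPM in that cluster at 4MPT, against 19.4 and 15.4 over all cells. Of 235 SEMA5A UMIs in HIP_4MPT, oligodendrocyte-lineage-like cells held 130, the unnamed cluster 70 and astrocyte-like cells 14. Of 405 in PFC_4MPT, the same cells held 103, 107 and 110. The part of any of these cells in the all-cell changes was not tested.

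Between PFC and HIP, with the stage as a covariate in the 4 grafts, 0 of 63 guidance genes were called over all cells by edgeR, against 0.0876% of all genes (0.0701% higher and 0.0175% lower in PFC). An unadjusted p under 0.05 was found for 6, and DESeq2 called 0. In neuron-like cells 0 of 62 were called by edgeR, against 0.0439% of all genes (0.0314% and 0.0126%), with 5 at an unadjusted p under 0.05 and 0 called by DESeq2. This does not show that the sites were alike.

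The size of the differences can be read for DCC. In neuron-like cells DCC was at 1046 and 422 CPM at 2MPT and at 877 and 606 at 4MPT. It was higher in the HIP graft at both stages, but with a log2 difference of PFC to HIP of −0.87 ± 0.37 it did not pass the adjusted threshold (edgeR, adjusted p = 1.00).

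In astrocyte-like cells 1 of 41 guidance genes was higher in PFC and 1 lower, against 0.257% of all genes called (0.124% and 0.133%). SEMA5A, a transmembrane semaphorin with attractive and repulsive actions, was at 2.06 and 14.6 CPM at 2MPT and 6.14 and 92.1 at 4MPT. It was higher in PFC within each stage, with a log2 fold change of 3.76 ± 0.52 (edgeR, adjusted p = 1.45e-09). The HIP_2MPT value rests on 1 UMI. With 1 residual degree of freedom, this p-value leans on a spread pooled over genes and not on that of SEMA5A between libraries. The 6 oligodendrocyte lineage markers summed to 49.4 and 32.6 CPM at 2MPT and 143 and 126 at 4MPT in these cells. They were not higher in PFC within either stage, and their part in the SEMA5A difference was not tested. DCC was at 298 and 26.6 CPM at 2MPT and 79.0 and 83.7 at 4MPT. HIP_2MPT was highest and PFC_2MPT lowest, and the log2 fold change of −1.54 ± 0.34 (edgeR, adjusted p = 0.00382) came with no lower level in PFC at 4MPT. The 6 neuron markers in these cells summed to 2816 CPM in HIP_2MPT and 882 to 1074 in the other grafts, and their part in the DCC difference was not tested.

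Neither call was made by DESeq2, where the adjusted p was 0.112 for SEMA5A and 1.00 for DCC, and neither was made without the stage in the fit. When the 71 genes were kept among the clustering genes the SEMA5A difference was 1.90 and was not called.

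**Figure D4:**
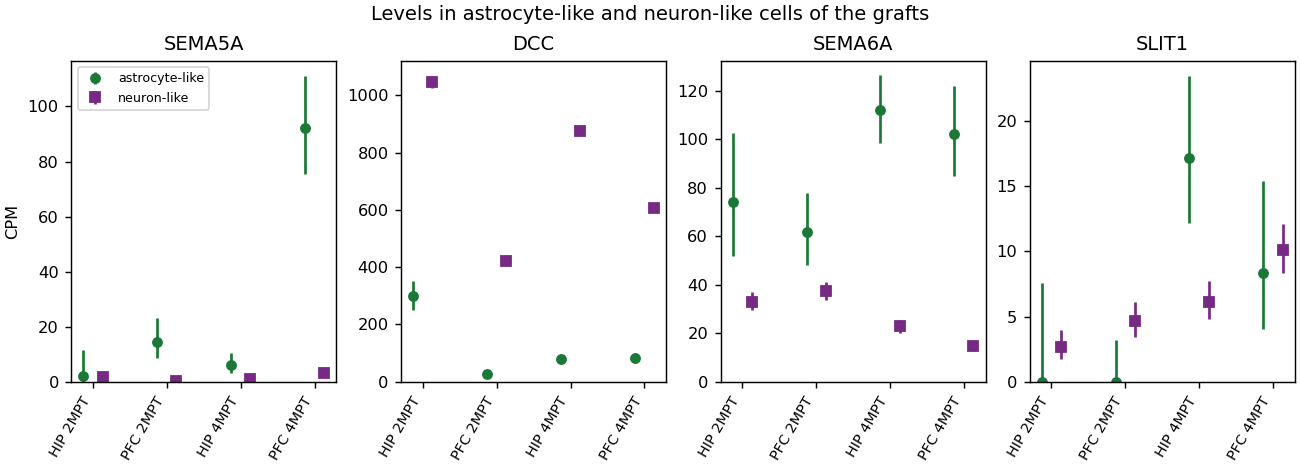
Levels of SEMA5A, DCC, SEMA6A and SLIT1 in astrocyte-like (circles) and neuron-like cells (squares) of each graft library, in CPM, with 1 point per library and bars for the exact 95% Poisson interval of its UMI count. In astrocyte-like cells SEMA5A is higher in PFC than in HIP at both stages, and DCC is highest in HIP_2MPT at 298 CPM.

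Between the stages, 0 of 41 guidance genes were called in astrocyte-like cells by edgeR, against 2.19% of all genes (1.53% higher and 0.656% lower), with 8 at an unadjusted p under 0.05 and 0 called by DESeq2. With the graft site as a block 2 were called. Leaving out 1 library gave 1 to 7 calls: 4 without HIP_2MPT, 7 without PFC_2MPT, 2 without HIP_4MPT and 1 without PFC_4MPT. The change from 2MPT to 4MPT was then compared between astrocyte-like and neuron-like cells in 1 model. Of 62 genes, 2 differed, both with the higher change in astrocyte-like cells, against 2.96% of all genes called (1.30% in this direction and 1.66% in the other).

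SEMA6A, a transmembrane ligand of PLXNA2 and PLXNA4, was at 74.0 and 61.7 CPM at 2MPT and 112 and 102 at 4MPT in astrocyte-like cells. In neuron-like cells it was at 33.0 and 37.3 CPM at 2MPT and 22.8 and 14.8 at 4MPT. The stages did not overlap in either class and the changes pointed in opposite directions, with a difference of 1.62 ± 0.30 on the log2 scale (edgeR, adjusted p = 9.85e-05). SLIT1 was at 0 CPM in both 2MPT libraries of astrocyte-like cells and at 17.1 in HIP_4MPT and 8.37 in PFC_4MPT. Against a floor of 3 UMIs per library this is an at least 2.92-fold higher level at 4MPT, beside a 2.22-fold higher level in neuron-like cells. The test called the difference (edgeR, adjusted p = 0.0144), but DESeq2 did not (adjusted p = 0.377), and the call was lost without PFC_2MPT or without HIP_4MPT, at a clustering resolution of 1.6 (adjusted p = 0.0670) and with the 71 genes kept among the clustering genes (adjusted p = 0.0843). Without HIP_2MPT 5 genes differed and without PFC_2MPT 8. The 8 astrocyte markers in astrocyte-like cells summed to 405 and 644 CPM at 2MPT and 5552 and 4484 at 4MPT. The part of this shift in the SEMA6A and SLIT1 differences was not tested. The unnamed cluster, which entered neither class, had SLIT1 at 66.3 and 49.2 CPM at 4MPT, above astrocyte-like cells in both grafts.

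Cell classes differed within each library, which is given as a description. Oligodendrocyte-lineage-like cells and the unnamed cluster were left out of this ranking. Among progenitor-like, neuron-like and astrocyte-like cells, 29 genes had the same leading class in all 4 grafts at 10 CPM or more. It was neuron-like for 19, astrocyte-like for 9 and progenitor-like for PLXNC1. The leading class was not counted over all genes, so these numbers are not read as a trait of guidance genes. No gene was at least 4 times the next of these classes in every graft. Neuron-like cells led for receptors and ligands of several families. NRP1 was at 149 to 318 CPM in neuron-like cells and at 15.4 to 105 in the next class, SEMA3C at 272 to 451 and 32 to 113, and EPHA3 at 517 to 1009 and 103 to 199. Astrocyte-like cells led for the ephrins EFNB1 (27.6 to 50.2 CPM against 13.7 to 24.8) and EFNB2 (94.6 to 139 against 69.5 to 119), for NTNG2 (37.7 to 58.6 against 7.85 to 20.1) and for SEMA5B (78.0 to 106 against 37.8 to 71). PLXNC1, the receptor of SEMA7A, was at 42.6 to 104 CPM in progenitor-like cells and at 30.8 to 63.6 in the next class.

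**Figure D5:**
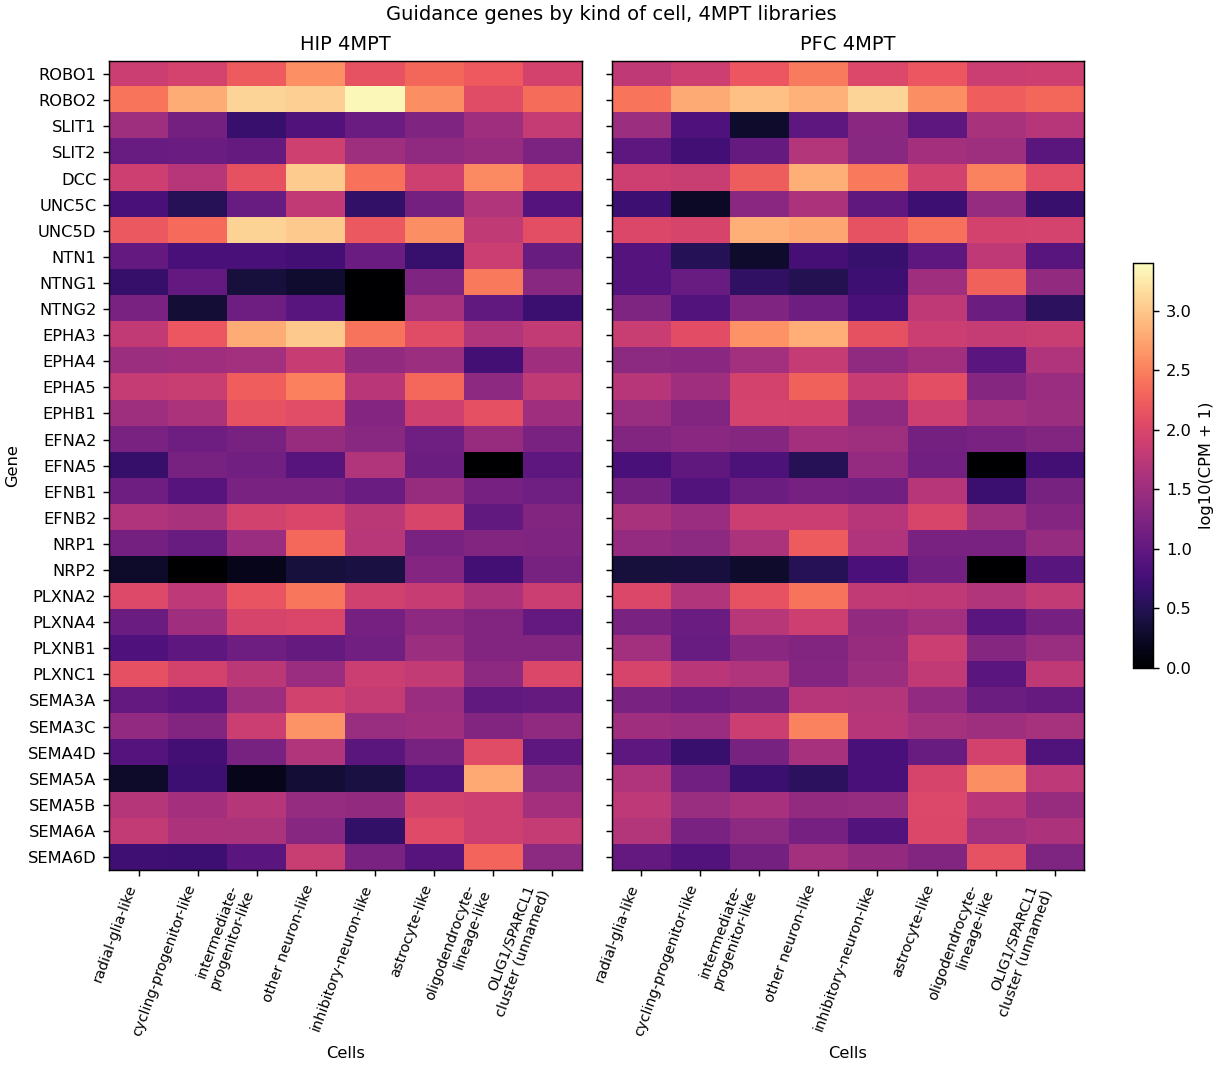
Levels of guidance genes by kind of cell in the HIP and PFC grafts at 4MPT, coloured by log10 of CPM plus 1. NRP1, SEMA3C and EPHA3 are brightest in neuron-like cells other than inhibitory-neuron-like ones, and SEMA5A in oligodendrocyte-lineage-like cells.

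In oligodendrocyte-lineage-like cells SEMA5A, NTNG1 and NTN1 stood out. Each was at least 4 times higher there than in every other named class in both 4MPT grafts, with NTN1 at 73.5 CPM in HIP and 57.6 in PFC. The unnamed cluster had NTN1 at 10.8 and 7.33 CPM and NTNG1 at 20.6 and 25.1. At a resolution of 1.6 a cluster of 1415 cells led by OLIG1 and GSX1 was named oligodendrocyte lineage. So was one of 1417 cells with the 71 genes kept among the clustering genes. The ranking was not remade there and holds for the narrower class of 65 and 102 cells. In this narrower class SEMA6D was at 202 and 138 CPM, SEMA4D at 115 and 88.4, and DCC at 367 and 330, named after their values were seen. With every cell thinned to 1000 UMIs, SEMA5A was found in 22 of 63 cells in HIP (34.9%, exact 95% interval 23.3 to 48.0) and 28 of 98 in PFC (28.6%, 19.9 to 38.6). Without thinning the shares were 58.5% and 52.9%. In neuron-like cells of the same grafts, the background here, the thinned shares were 0.130% and 0.326%. Intervals cover counting error only.

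Among neurons, inhibitory-neuron-like cells at 4MPT numbered 244 in HIP and 1070 in PFC. They differed for several guidance genes from the 3668 and 3911 cells in clusters named neuron or glutamatergic neuron. That comparison set leaves out intermediate-progenitor-like cells and the clusters led by MTRNR2L and heat shock genes. ROBO2 was at 2238 and 1258 CPM in inhibitory-neuron-like cells, against 1145 and 701 in the comparison set. SEMA3C was at 28.1 and 50.3 CPM, against 437 and 323. NRP1 was at 51.6 and 44.7, against 211 and 169, and DCC at 247 and 283, against 1083 and 690. Inhibitory-neuron-like cells thus had more ROBO2 and less SEMA3C, NRP1 and DCC in both grafts. EFNA5 was at 45.3 and 25.7 CPM, against 7.04 and 2.38, and inhibitory-neuron-like cells numbered 11 and 17 at 2MPT. The part of these cells in the EFNA5 rise between the stages was not tested.

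UNC5D was higher in intermediate-progenitor-like than in radial-glia-like cells of every graft. At 4MPT it was at 1205 and 684 CPM in intermediate-progenitor-like cells and at 155 and 103 in radial-glia-like cells. At 2MPT the values were 610 and 975 against 176 and 131. In D0 intermediate-progenitor-like cells held 2.79 CPM.

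Other genes of the pathway were read from lists of effectors and partners. Of 49 intracellular effectors, such as the collapsin response mediators, 14 were higher and 7 lower at 2MPT than in D0, against 27.2% and 21.1% of all genes, and 12 and 6 at 4MPT, against 28.7% and 21.4%. The higher counts thus lay near the background and the lower ones under it. Between 4MPT and 2MPT 0 of 49 were called over all cells by edgeR, against 2.40% of all genes, with 7 at an unadjusted p under 0.05. In neuron-like cells 1 of 49 was called, against 1.13% of all genes. It was RND2, a small GTPase of migrating neurons, lower by 1.38 ± 0.26 on the log2 scale (edgeR, adjusted p = 0.0311). In astrocyte-like cells 1 of 42 was called, against 2.19% of all genes. It was VAV3, a guanine nucleotide exchange factor, higher with a log2 fold change of 3.09 ± 0.68 (edgeR, adjusted p = 0.0272).

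Of 38 other cues, co-receptors and partners, 8 were higher and 16 lower at 2MPT than in D0, and 10 and 13 at 4MPT, against the same shares of all genes. Between the stages 3 rose and 1 fell over all cells, against 1.85% and 0.550% of all genes. Those that rose were ACKR3, a scavenger receptor for CXCL12 (log2 fold change 5.67), LRRC4C, the netrin-G1 ligand on the partner cell (2.75), and RGMA, a repulsive ligand of neogenin (1.56). ACKR3, LRRC4C and RGMA had been called lower at 2MPT than in D0, and at 4MPT ACKR3 was still called lower and LRRC4C higher. CNTN2, an axonal adhesion molecule, fell by 1.59 and was called lower than in D0 at both stages. LRRC4C also rose in neuron-like cells, with a log2 fold change of 2.16 ± 0.28 (edgeR, adjusted p = 0.00312), where its partner NTNG1 stayed under 4 CPM at 4MPT. It was 1 of 37 tested there, against 1.13% of all genes called. In astrocyte-like cells 1 of 24 was called between the stages, against 2.19% of all genes. It was CDON, lower at 4MPT by 1.41 ± 0.30 (edgeR, adjusted p = 0.0240). Between PFC and HIP 1 of 24 was called, against 0.257%. It was DSCAM, lower in PFC by 1.44 ± 0.33 (edgeR, adjusted p = 0.00769, from the fit with 1 residual degree of freedom).

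Some human guidance RNA was also read in host barcodes, those with under 20% human UMIs. It came to 0.603 and 0.190 UMIs of the 71 genes per host barcode at 2MPT and 0.490 and 0.488 at 4MPT, against 7.18 and 13.3, and 14.1 and 7.32, per human cell. Levels near these values cannot be read as expression of a single cell.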

How the data were processed

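The authors deposited UMI count matrices per gene and cell-containing barcode, made with 10x Genomics 3′ chemistry and Cell Ranger, without normalization and before species and quality filters. Per the file headers the release was 3.1.0 for D0 and 5.0.0 for grafts, while the submitters' notes name 3.1, and the D0 annotation lists 33538 genes and that of grafts 36601. Grafts were also counted against a human and mouse dual reference. Barcodes were kept as human cells at more than 500 UMIs and 500 genes, log10 genes divided by log10 UMIs over 0.8, less than 0.15 mitochondrial UMIs and, in grafts, more than 0.8 human UMIs in the dual reference. No doublet caller was run.

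Genes were matched by identifier. Loci are those of GENCODE 44 on GRCh38, and promoters those of RefSeq for GRCh38.p14, where 60 of 71 genes matched. R 4.3.3 with sctransform 0.4.2 and Seurat 5.3.0 was used to cluster the cells (2500 variable genes, the 71 genes left out, RPCA integration, 40 principal components, resolution 0.8). Marker lists gave a name to 20 of 21 clusters. UMIs were summed per library and class and tested with edgeR 4.0.16 (filterByExpr, TMM, quasi-likelihood F test, Benjamini-Hochberg threshold 0.05). DESeq2 1.42.0 served as the other tool. D0, 2MPT and 4MPT were fitted together, and PFC against HIP in grafts with stage as covariate. Each test was first tested on simulated data. Of 100 genes changed 4-fold 60 to 86 were found, and of 100 changed 2-fold 8 to 23, with 1 to 10 false calls. Changes near 2-fold were thus mostly missed in these runs, where no other genes were changed. Against D0 a far larger share of genes was called, which eases the adjusted threshold, so these shares do not carry over to those comparisons. Total UMIs in human cells were 55892222 in D0, 11192237 and 15136302 at 2MPT (HIP, then PFC) and 21459173 and 16864036 at 4MPT.

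The members, marker lists, pathway lists and tests were chosen with earlier results of these data known. Values are given for the 2 members of each family with the highest mean level, for up to 8 called members per direction in each comparison, taken by size of change among those averaging 5 CPM or more, for members at least 4 times higher in 1 class, and for those called in the stage difference between classes. Any further gene was picked once its values were known.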

Additional observations from a re-analysis of the deposited data

Results flagged for a closer look

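For 2 genes the change from 2MPT to 4MPT differed between astrocyte-like and neuron-like cells by a test of the difference itself. The fitted log2 difference was 1.62 for SEMA6A, which was higher at 4MPT in astrocyte-like cells and lower in neuron-like cells of both sites. For SLIT1 it was 8.27, a value that depends on the prior count because both 2MPT libraries of astrocyte-like cells held no UMI of it. The label astrocyte-like was weaker at 2MPT than at 4MPT, and its part in both differences was not tested. SLIT1 was higher in the unnamed cluster, at 66.3 and 49.2 CPM at 4MPT, and that cluster entered neither class.

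Human UMIs of the guidance genes were also read in host barcodes, which the comparisons do not use. They numbered 552 and 147 at 2MPT (HIP, then PFC) and 1014 and 586 at 4MPT. The human share of all UMIs in those barcodes was 10.3%, 2.58%, 2.97% and 9.14% in the same order. The origin of these UMIs was not tested.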

How the results depend on the processing

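No named change reversed under any alternative run. Counts of members called against D0 ranged, with 1 library left out, from 34 to 42 (2MPT) and 32 to 43 (4MPT) over all cells, 38 to 41 and 36 to 45 in neuron-like cells, and 26 to 34 and 26 to 37 in progenitor-like cells. Those between 4MPT and 2MPT ranged from 0 to 18 over all cells, 3 to 13 in neuron-like and 1 to 7 in astrocyte-like cells, and those for the stage difference between classes from 2 to 8. Without a filter on low counts the count was 1 for PFC against HIP over all cells, 9 between stages in neuron-like cells and 4 in astrocyte-like cells, and 1 for PFC against HIP in astrocyte-like cells. Scaling by relative log expression gave 3 between stages in neuron-like cells. In astrocyte-like cells between stages, a human share over 0.9, over 1000 UMIs per cell, and the members kept among the clustering genes gave 1 each. For PFC against HIP in astrocyte-like cells, DESeq2, no stage in the fit and the members kept gave 0 each, and DESeq2 gave 1 for the stage difference. Shares of cells with SEMA5A were 58.5% and 52.9% without thinning. The causes were not tested beyond the samples or genes each setting removes. Replicate 1 of each stage is HIP and replicate 2 PFC, so same-numbered libraries share the graft site, and with the site as a replicate block in grafts alone 11 members were called between stages over all cells, 5 in neuron-like and 2 in astrocyte-like cells. Leaving out a library in PFC against HIP left no residual degrees of freedom, so no test was made. Among the named changes, 962 of the other values kept their side of the threshold and 18 lost it, and 418 and 26 with 1 library left out. Leaving out the clusters led by MTRNR2L and heat shock genes, an alternative chosen after seeing the data, moved no count by over 1.5 times. The D0 comparisons rest on 1 library, and low depth per graft cell limits genes under 10 CPM.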

Other observations

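An unnamed cluster with OLIG1, SPARCL1 and OLIG2 among its top genes was found at 4MPT, with 955 cells in HIP and 702 in PFC. In both grafts 8 of 8 astrocyte markers and 5 of 6 oligodendrocyte lineage markers reached 10 CPM in it. SEMA5A was at 20.3 and 56.0 CPM there, between the levels of astrocyte-like and oligodendrocyte-lineage-like cells in HIP, and below both in PFC. The unnamed cluster entered no comparison of classes.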
